A study of Homo sapiens with 9 samples.

Results

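Lysosomal hydrolases and membrane proteins were examined as a set of 34 genes chosen by symbol out of 21619 genes counted, and all 34 had enough reads to be tested. They comprise 12 glycosidases, 4 sulfatases and related enzymes of sulfated sugars, 5 lipid hydrolases, 2 peptidases and 1 phosphatase, 4 activator or sterol transfer proteins and 6 membrane proteins. The samples were 9 xenograft tumours of MDA-MB-231, an established triple-negative human breast cancer line, in which the cancer cells carried ribosomal protein L10a fused to EGFP. In 5 tumours these cells went into the mammary fat pad of the mouse mixed 1:1 with mesenchymal stem cells (MSC) from human bone marrow, and in 4 tumours without MSC. Each tumour came from its own mouse and was taken after 3 weeks. Only the cancer cells carried the tag, per the labels, and RNA was recovered from whole-tumour lysate on anti-GFP beads (translating ribosome affinity purification). The counts therefore stand for RNA on tagged polysomes, with whatever untagged MSC or mouse cells left behind on the beads. Total tumour RNA was not analysed here, so a change in RNA abundance and one in ribosome association cannot be told apart. Nor can fewer cells of a type be told apart from less RNA per cell.

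Lysosomes are acidic compartments that break down sugars, lipids and proteins taken up by endocytosis or delivered by autophagy. Most soluble lysosomal enzymes are made in the endoplasmic reticulum and tagged with mannose 6-phosphate for delivery, whereas membrane proteins such as LAMP1 and LAMP2 form the inner coat of the organelle. Loss of single hydrolases causes lysosomal storage diseases. Some of these genes carry the motif read by TFEB and its relatives, transcription factors that are held in the cytosol by the growth kinase mTORC1.

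The libraries held 29749909 to 50639082 gene counts with MSC and 24616792 to 65275226 without. Of the marker genes of the cell line, vimentin (VIM) averaged 8976 ± 2114 CPM (counts scaled to a common library size) with MSC and 7380 ± 589.3 CPM without (SD, n = 5 and 4). VIM was not called (edgeR adjusted p = 0.287). Of the 9 cell-line markers tested, 4 were called higher with MSC and none lower, and all 9 had a positive log2 change (median 0.35). The 4 were EGFR (log2 0.90 ± 0.17), CD44 (0.61 ± 0.13), AXL (0.53 ± 0.12) and KRT8 (0.46 ± 0.13). The hormone receptors ESR1 and PGR were at most 0.208 CPM in any tumour. ERBB2, the receptor gene listed with them, averaged 28.02 ± 5.345 CPM with MSC and 22.57 ± 3.599 CPM without. Summed over 13 fibroblast and MSC markers the level was 611.5 to 844.0 CPM with MSC and 537.0 to 675.8 CPM without, most of it NT5E, which averaged 611.1 ± 53.3 CPM with MSC and 513.9 ± 62.4 CPM without. Of the 8 of these markers with enough reads to be tested, 7 had a positive log2 change and 1, the fibrillar collagen COL1A2, was called higher with MSC. COL1A2 had 1.21 to 8.45 CPM with MSC and 0.528 to 0.699 CPM without (log2 2.41 ± 0.51, edgeR adjusted p = 0.0104), and its change was 1.61 without tumour 15 (edgeR adjusted p = 0.0417). Its call was lost without tumour 12 (edgeR adjusted p = 0.0765) and with limma-voom. Tumour 15 with MSC stood apart for several markers, of which 2 are named here after their values were seen. The proteoglycan DCN had 18.9 CPM in tumour 15, against at most 0.207 CPM in any other tumour. The collagen COL3A1 had 21.2 CPM in tumour 15, against at most 1.55 CPM in any other. Over 14 macrophage markers the sum was 53.7 to 81.8 CPM with MSC and 75.0 to 88.6 CPM without, mostly CD74. The 7 endothelial markers summed to 5.06 to 7.26 CPM with MSC and 8.35 to 10.9 CPM without, mostly PECAM1. PECAM1 averaged 4.43 CPM with MSC and 8.50 CPM without, and was called lower (log2 -0.94 ± 0.19, edgeR adjusted p = 0.00745). The 5 adipocyte markers summed to 0.262 to 4.03 CPM with MSC, highest in tumour 15, and 0.290 to 0.752 CPM without, with LEP at 0 in every tumour. The part of these cells in the results below was not tested. Without tumour 15, NPC1, NEU1 and CD68 were the lysosomal genes that passed.

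Of the 34 lysosomal genes, 6 rose in tumours grown with MSC and none fell, by the quasi-likelihood test of edgeR with p adjusted over 13458 genes (Benjamini-Hochberg, threshold 0.05). Across all genes tested, 4.18% rose and 3.60% fell. At an unadjusted p under 0.05, 12 of the 34 were higher and none lower, against 12.8% and 11.8% of all genes, and neither DESeq2 nor limma-voom called one lower. The 6 genes were NPC1, LIPA, CTSA, NEU1, CD68 and PSAP, with changes of 1.33- to 1.52-fold. Positive log2 changes, with MSC minus without, were found for 30 of the 34 genes, and for 51.1% of all genes. The median change of the 34 was 0.24, and that of all genes 0.01. In 4 of the 34 every tumour with MSC was above every tumour without, which held for 5.13% of all genes, and in none was every tumour with MSC below every tumour without, which held for 4.87%. With DESeq2 size factors or library size only, every tumour with MSC was above every tumour without for NEU1 and NPC1 alone among the 34. Under these scalings the same held for 5.02% and 3.85% of all genes.

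**Figure D1:**
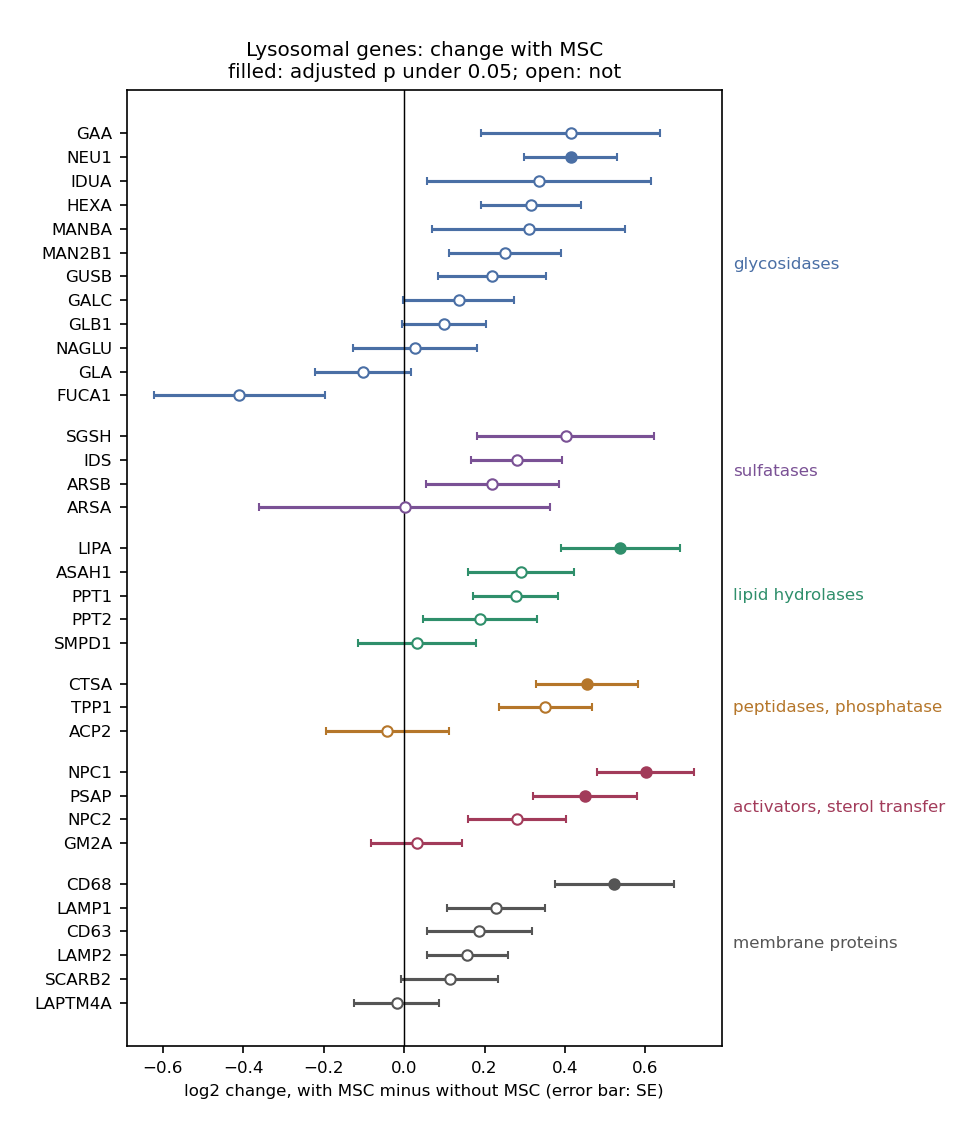
Log2 change (with MSC minus without, horizontal axis) of each of the 34 lysosomal genes, grouped by role, with its SE. Filled points passed the test (NPC1, LIPA, CTSA, NEU1, CD68 and PSAP), and 30 of the 34 points lie right of 0.

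The levels differed widely between genes. Per kilobase of exon, and averaged over tumours, the most abundant was CD63, a tetraspanin of late endosomes and exosomes, at 221.3 CPM per kb with MSC and 194.5 CPM per kb without. The cholesterol-binding protein NPC2 followed at 181.5 CPM per kb with MSC and 149.4 CPM per kb without. LAPTM4A, a small protein of the late endosome and lysosome membrane, had 127.5 CPM per kb with MSC and 129.2 CPM per kb without. At the low end were ARSA, which removes sulfate from sulfatide, at 0.921 CPM per kb with MSC and 0.931 CPM per kb without, and the beta-mannosidase MANBA at 0.939 CPM per kb with MSC and 0.764 CPM per kb without. ARSA rested on 42 to 114 counts per library with MSC and 63 to 73 without, and its change had the widest error of the set. The first 5 places, CD63, NPC2, LAPTM4A, PSAP and CD68, were the same in both groups.

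**Figure D2:**
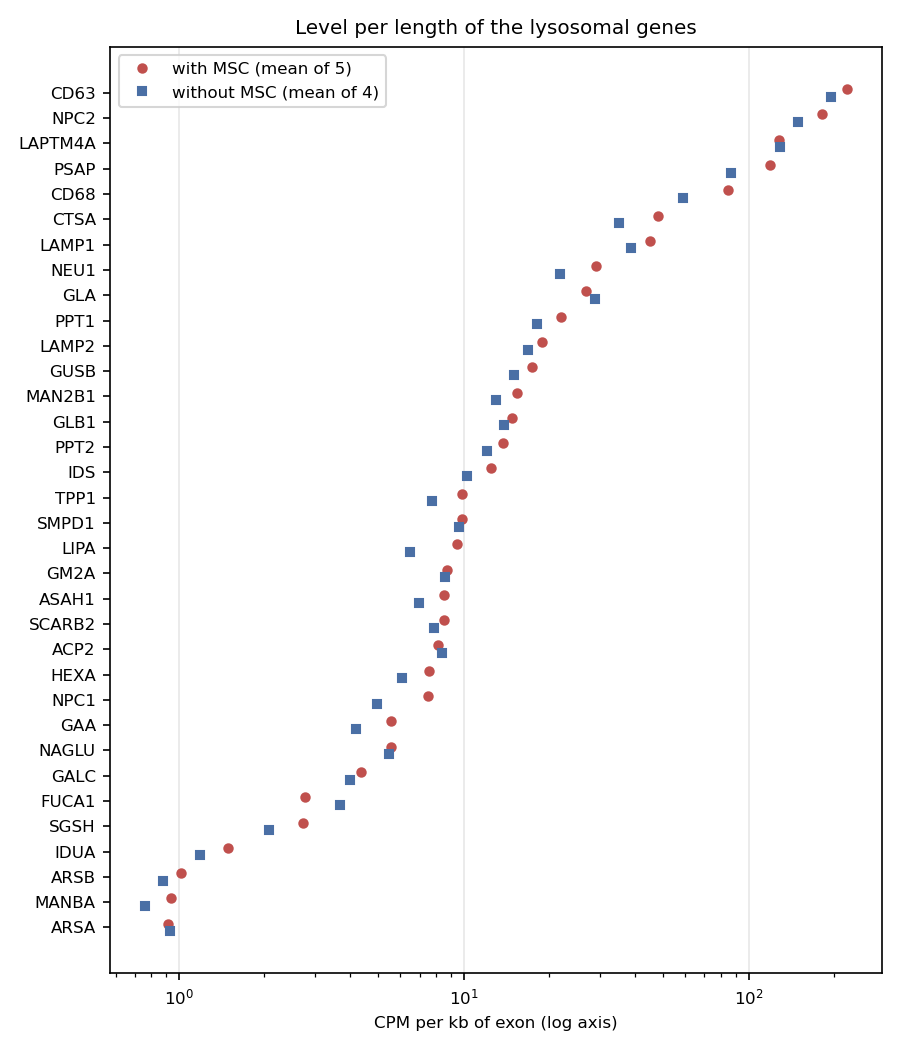
Mean level per kilobase of exon (CPM per kb, log axis) of the 34 genes in tumours with MSC (circles, 5 tumours) and without MSC (squares, 4 tumours). CD63 is highest in both groups, at 221.3 CPM per kb with MSC and 194.5 CPM per kb without.

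Promoter sequences are shown for the members whose promoter holds CACGTG, the core of the TFEB motif, because these letters are the known link between lysosomal genes. RefSeq promoters (GRCh38.p14, 250 bases before to 50 after the start site) were matched for 26 of the 34 genes. CACGTG reads the same on both strands. It was found in 5 of the 26 (19.2%), in 7.43% of all promoters in the table and in 10.1% of the 9383 promoters of tested genes. The longer TCACGTGA, which contains it, was in 3 of the 26 (11.5%) and in 1.98% of the promoters of tested genes. The stretches shown run 5′ to 3′ on the strand of the gene and end before the start site, with CACGTG in capitals.
CTSA: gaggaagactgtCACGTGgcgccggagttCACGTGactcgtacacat
NEU1: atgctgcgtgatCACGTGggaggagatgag
GAA: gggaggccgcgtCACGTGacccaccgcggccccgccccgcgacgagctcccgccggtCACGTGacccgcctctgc
LAMP1: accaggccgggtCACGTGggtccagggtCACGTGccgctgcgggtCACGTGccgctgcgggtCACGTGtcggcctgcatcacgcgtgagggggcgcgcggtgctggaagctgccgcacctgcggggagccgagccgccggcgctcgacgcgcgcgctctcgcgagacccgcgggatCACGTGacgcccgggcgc
CD63: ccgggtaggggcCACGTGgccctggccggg
They lie at chr20:45891281-45891327 on the plus strand (CTSA), chr6:31862930-31862959 on the minus strand (NEU1), chr17:80101493-80101567 on the plus strand (GAA), chr13:113297035-113297228 on the plus strand (LAMP1) and chr12:55729172-55729201 on the minus strand (CD63). LAMP1 had 6 copies in its window, of which the 5 that lie wholly before the start site are shown, GAA and CTSA 2 each, and NEU1 and CD63 1 each. Of the called genes with a matched promoter, CTSA and NEU1 held the letters and NPC1, LIPA and CD68 did not. LAMP1, with the most copies, and GAA and CD63 did not pass the test. The sterol element letters TCACNCCAC, searched on both strands, were in none of the 26 promoters and in 1.16% of those of tested genes.

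Genes that handle cholesterol and lipid in the lysosome held the most firmly called member. LIPA is the acid lipase that frees cholesterol from lipoprotein esters, NPC2 binds the cholesterol in the lumen, and NPC1 exports it through the membrane. NPC1 had 32.6, 42.7, 35.8, 42.1 and 40.8 CPM in tumours 1, 6, 7, 10 and 15 with MSC, against 21.7, 27.4, 26.7 and 26.7 CPM in tumours 9, 11, 12 and 13 without. All 5 tumours with MSC were above all 4 without. Its log2 change was 0.60 ± 0.12 (SE, edgeR adjusted p = 0.00727), and the call held in each of 21 alternative fits (log2 0.50 to 0.66, adjusted p at most 0.0339). None of the other 5 called genes did so.

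LIPA had 33.6, 28.5, 26.8, 26.9 and 28.95 CPM in tumours 1, 6, 7, 10 and 15 with MSC, against 20.8, 16.0, 15.9 and 26.8 CPM in tumours 9, 11, 12 and 13 without. Tumour 13 without MSC met the low end of the tumours with MSC, and the other three were below. The log2 change was 0.54 ± 0.15 (edgeR adjusted p = 0.0329). NPC2 was not called, at 407.6 to 513.3 CPM with MSC and 335.6 to 479.9 CPM without (log2 0.28 ± 0.12, edgeR adjusted p = 0.156), with a 95% interval of 0.03 to 0.53. The call of LIPA was lost in 7 of the 9 fits that left out 1 tumour.

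Other lipid enzymes did not pass. ASAH1, the acid ceramidase, had 35.8 to 42.5 CPM with MSC and 25.4 to 42.2 CPM without (log2 0.29 ± 0.13, edgeR adjusted p = 0.178). PPT1, which removes palmitate from proteins, had 92.3 to 102.5 CPM with MSC and 68.3 to 93.8 CPM without (log2 0.28 ± 0.11, edgeR adjusted p = 0.110). In both, tumour 13 was the one without MSC that reached into the other group. The acid sphingomyelinase SMPD1 had a log2 change of 0.03 ± 0.15 and the thioesterase PPT2 one of 0.19 ± 0.14. In GENCODE 29, 44.1% of the exon bases of PPT2 lie in the readthrough gene PPT2-EGFL8 and 27.3% of those of PPT1 in the antisense gene CAP1, and the sources do not say whether strand was used in counting, so their levels are uncertain.

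**Figure D3:**
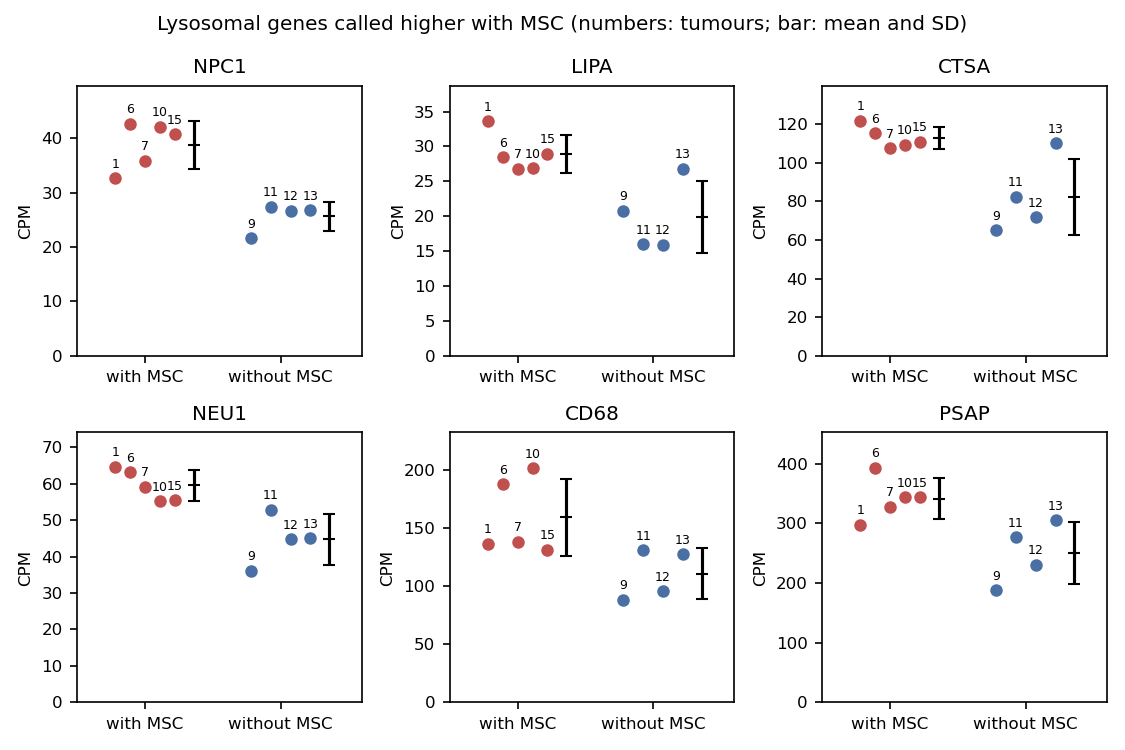
CPM in each tumour (points, numbered) of the 6 lysosomal genes called higher with MSC, with the group mean and SD beside them. For NPC1 the lowest tumour with MSC is at 32.6 CPM and the highest without at 27.4 CPM.

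CTSA and NEU1 encode partners of one complex, in which the protective protein cathepsin A (CTSA) keeps the sialidase NEU1 and the beta-galactosidase GLB1 stable. CTSA had 121.7, 115.1, 107.4, 109.3 and 110.8 CPM in tumours 1, 6, 7, 10 and 15 with MSC, against 65.1, 82.4, 71.9 and 110.0 CPM in tumours 9, 11, 12 and 13 without. Tumour 13 lay inside the range of the tumours with MSC and the other three below it. The log2 change was 0.45 ± 0.13 (edgeR adjusted p = 0.0341). NEU1 had 64.7, 63.1, 59.2, 55.1 and 55.4 CPM in tumours 1, 6, 7, 10 and 15 with MSC, against 36.1, 52.9, 44.7 and 45.0 CPM in tumours 9, 11, 12 and 13 without. The groups did not overlap, and the log2 change was 0.41 ± 0.12 (edgeR adjusted p = 0.0343). GLB1, the third partner, had 37.2 to 42.9 CPM with MSC and 34.7 to 40.6 CPM without. Its log2 change was 0.10 ± 0.10 (edgeR adjusted p = 0.601), with a 95% interval of -0.12 to 0.32. Whether it differed from the changes of CTSA and NEU1 was not tested. In GENCODE 29, 19.0% of the exon bases of CTSA lie in the antisense genes PLTP and NEURL2. Leaving out 1 tumour ended the call of CTSA in 8 of 9 fits and that of NEU1 in 6.

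Among the other 10 glycosidases none passed (edgeR), and 1, HEXA, had an unadjusted p under 0.05. HEXA, a beta-hexosaminidase subunit that degrades gangliosides, had 41.4 to 47.9 CPM with MSC and 30.0 to 45.6 CPM without (log2 0.32 ± 0.12, edgeR adjusted p = 0.119). The glycogen-degrading GAA had a similar difference with a wider error (log2 0.41 ± 0.22), since it ran from 14.6 to 23.1 CPM with MSC and from 7.45 to 20.6 CPM without. IDUA (0.33 ± 0.28), MANBA (0.31 ± 0.24), MAN2B1 (0.25 ± 0.14) and GUSB (0.22 ± 0.13) had positive log2 changes that did not pass (edgeR adjusted p = 0.274 to 0.488). GALC, which degrades galactosylceramide, had a log2 change of 0.14 ± 0.14 and the heparan sulfate enzyme NAGLU one of 0.03 ± 0.15. The lowest changes were those of FUCA1, a fucosidase, at -0.41 ± 0.21, and of the alpha-galactosidase GLA at -0.10 ± 0.12. FUCA1 had 3.89 to 6.82 CPM with MSC and 5.21 to 10.2 CPM without, and its adjusted p was 0.239.

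No sulfatase passed in edgeR, DESeq2 or limma-voom, and 1 of the 4 had an unadjusted p under 0.05. That was IDS, which removes sulfate from heparan and dermatan sulfate, with 90.5 to 126.6 CPM with MSC and 79.2 to 101.7 CPM without (log2 0.28 ± 0.11, edgeR adjusted p = 0.130). Unlike most of the set, IDS was not lowest in tumour 9, which was its highest tumour without MSC. SGSH (0.40 ± 0.22), ARSB (0.22 ± 0.17) and ARSA (0.00 ± 0.36) did not pass either (edgeR adjusted p = 0.267 to 0.998).

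PSAP, the precursor of the saposins that present lipids to their hydrolases, was the called gene with the highest level. It had 297.6, 393.4, 327.5, 344.2 and 343.4 CPM in tumours 1, 6, 7, 10 and 15 with MSC, against 187.5, 276.6, 230.4 and 304.9 CPM in tumours 9, 11, 12 and 13 without. Tumour 13 without MSC exceeded tumour 1 with MSC, and the other three were below all 5. The log2 change was 0.45 ± 0.13 (edgeR adjusted p = 0.0384), and the call was lost in 7 of 9 fits without 1 tumour. GM2A, the activator that works with hexosaminidase, had 30.8 to 39.0 CPM with MSC and 30.4 to 36.03 CPM without (log2 0.03 ± 0.11, 95% interval -0.20 to 0.27). Of the remaining soluble enzymes, the tripeptidase TPP1 had 40.9 to 54.2 CPM with MSC and 33.2 to 41.5 CPM without, and tumour 13 without MSC was above tumour 1 with MSC. Its log2 change was 0.35 ± 0.12 (edgeR adjusted p = 0.0657), and DESeq2 called it higher (adjusted p = 0.0391). The acid phosphatase ACP2 had a log2 change of -0.04 ± 0.15.

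Of the 6 membrane proteins CD68 rose. CD68, a LAMP family glycoprotein used as a macrophage marker, had 136.5, 187.6, 138.2, 201.6 and 131.5 CPM in tumours 1, 6, 7, 10 and 15 with MSC, against 88.4, 131.1, 95.8 and 127.7 CPM in tumours 9, 11, 12 and 13 without. Tumours 6 and 10 stood above the rest, and the lowest tumour with MSC lay next to the highest without. The log2 change was 0.52 ± 0.15 (edgeR adjusted p = 0.0371), lost in 5 of 9 fits without 1 tumour. Of the 14 macrophage markers, whose summed levels are given above, 4 had enough reads to be tested (CD74, CSF1R, LYZ and CD14) and none was called in either direction, while 1 was lower at an unadjusted p under 0.05. CD74 had 44.5 to 74.3 CPM with MSC and 68.1 to 82.7 CPM without. The receptor CSF1R had 3.52 to 6.47 CPM with MSC and 1.82 to 5.92 CPM without, and the lysozyme gene LYZ 0.564 to 1.66 CPM with MSC and 1.27 to 2.85 CPM without. CD14 had 0.158 to 0.628 CPM with MSC and 0.0912 to 1.20 CPM without, and PTPRC, which reached its highest value in tumour 1, had 0.179 to 3.58 CPM with MSC and 0 to 0.198 CPM without. The other 9 markers were at most 0.543 CPM in any tumour. Their sum was 2.14 CPM in tumour 15 with MSC and at most 0.301 CPM in any other tumour. Of these 9, FCER1G alone separated the groups, at 0.0403 to 0.301 CPM with MSC and 0 CPM without, on too few reads to be tested. The part of macrophages in the level of CD68 was not tested.

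The other membrane proteins had small changes. LAMP1 had 109.9 to 143.4 CPM with MSC and 77.6 to 117.3 CPM without (log2 0.23 ± 0.12, edgeR adjusted p = 0.254), and LAMP2 91.9 to 112.4 CPM with MSC and 83.7 to 104.9 CPM without (log2 0.16 ± 0.10). CD63 had 477.3 to 604.7 CPM with MSC and 323.0 to 526.4 CPM without (log2 0.19 ± 0.13). SCARB2, also called LIMP-2, which carries glucocerebrosidase to the lysosome, had a log2 change of 0.11 ± 0.12. LAPTM4A was within 193.4 to 265.0 CPM in all 9 tumours (log2 -0.02 ± 0.10, 95% interval -0.24 to 0.20).

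Tumours varied within the groups as well as between them. Tumour 9 without MSC, the deepest library, was the lowest of the 9 for 24 of the 34 genes, and tumour 12 without MSC for 7. By median over the 34 genes, tumour 9 lay at -0.48 on the log2 scale relative to the mean of all tumours and tumour 12 at -0.22, while tumours 11 and 13 without MSC lay at -0.01 and 0.04. The 5 tumours with MSC lay between -0.02 and 0.18, so those with MSC overlapped tumours 11 and 13. Summed over the 34 genes the level was 2794 to 3216 CPM with MSC and 2040 to 2764 CPM without. Tumour 6 with MSC was the highest for 10 genes and tumour 10 with MSC for 9.

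**Figure D4:**
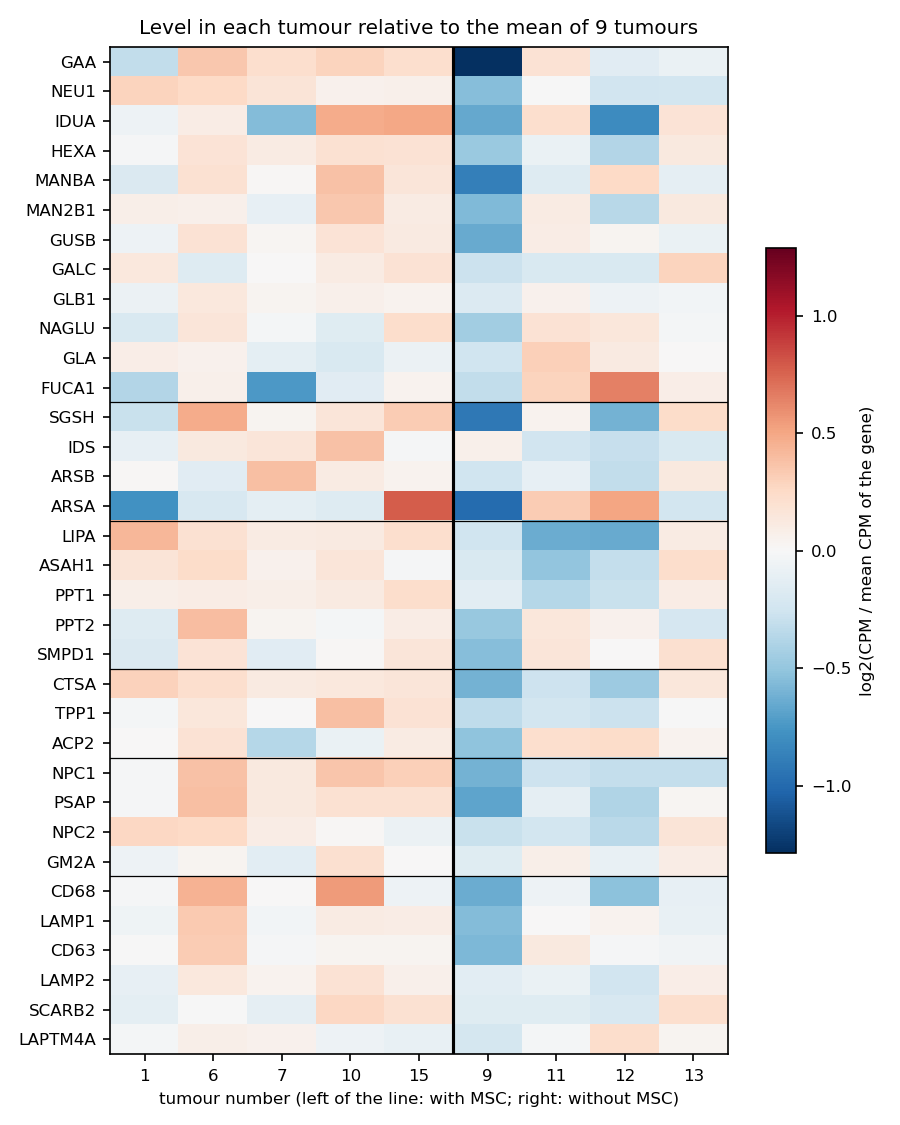
Level of each lysosomal gene in each tumour as log2 of its CPM over the mean CPM of the 9 tumours (red above, blue below), with MSC left and without MSC right of the line, rows grouped by role. Tumour 9 is the lowest for 24 of the 34 genes.

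The number of calls depended on single tumours. Leaving out 1 tumour gave 1 to 11 lysosomal genes higher and none lower. Only 1 gene, NPC1, was called without tumours 1, 6 or 10 with MSC, or without tumours 9 or 12 without MSC. It was 3 without tumours 7 or 15, 4 without tumour 11, and 11 without tumour 13. Without tumour 13, HEXA, ASAH1, PPT1, TPP1 and NPC2 passed in addition to the 6. The share of all tested genes called higher moved too, to 1.11% without tumour 12 and 7.31% without tumour 13. Without tumour 9 the median log2 change of the 34 genes was 0.14, with 26 positive, and that of all genes was 0.02. With tumours 15 and 12 both left out, NPC1 alone was called, and 1.49% of all genes were called higher. With a correction for GC content and transcript length, NPC1 and LIPA were called, and 2.38% of all genes were called higher. With that correction the median of the 34 was 0.15, and that of all genes -0.06. Of the 34 changes, 27 were positive.

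**Figure D5:**
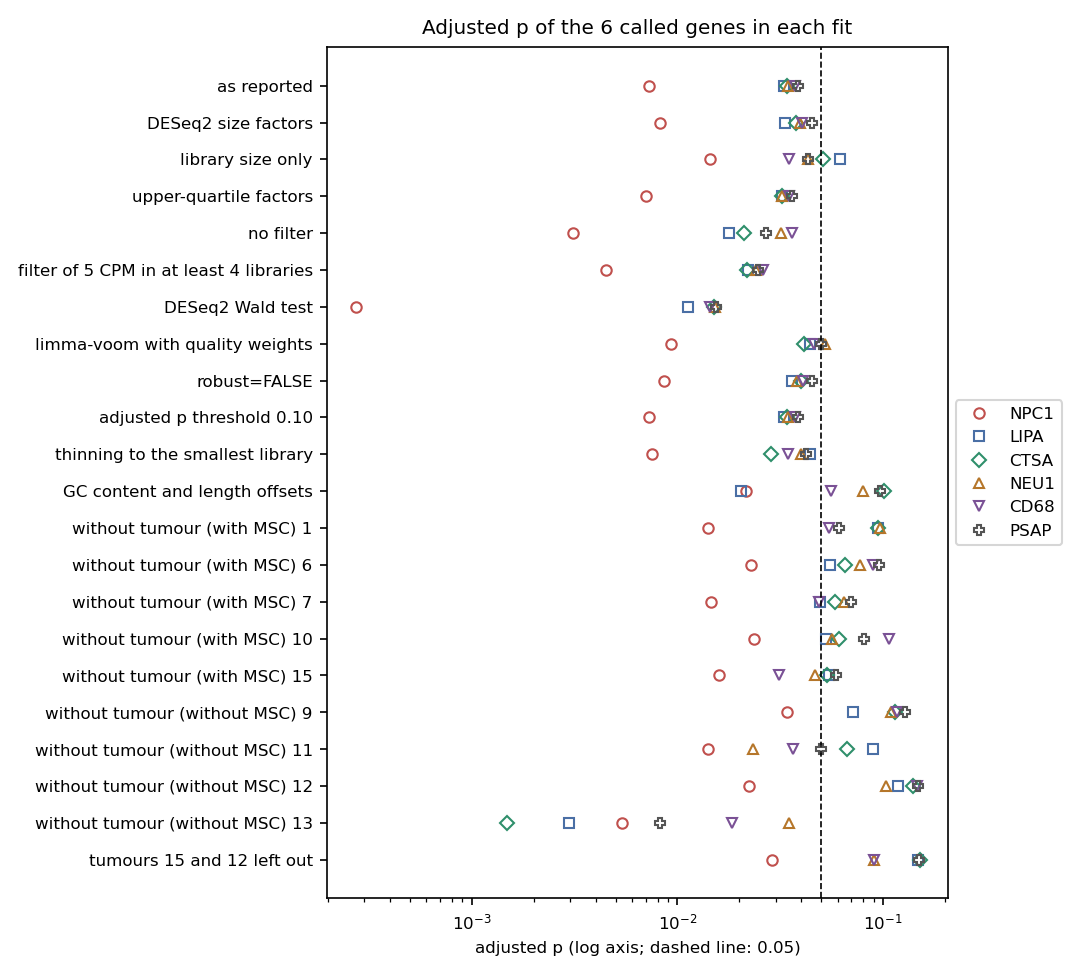
Adjusted p (log axis) of the 6 called lysosomal genes as reported and in each alternative setting, with the threshold of 0.05 dashed. NPC1 stays left of the line in every setting, at most 0.0339, and the other 5 cross it in several.

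Further genes of the lysosome were counted from lists of the pathway. Across all genes tested in edgeR, 4.18% rose and 3.60% fell. Of 21 other lysosomal hydrolases tested, 5 (23.8%) rose and none fell (median log2 0.31). Among them were PLBD2, at 8.34 ± 0.765 CPM with MSC (SD, n = 5) and 4.63 ± 2.14 CPM without (SD, n = 4; log2 0.84 ± 0.24, edgeR adjusted p = 0.0373), the phospholipase PLA2G15 (log2 0.73 ± 0.21) and the hyaluronidase HYAL2 (log2 0.48 ± 0.14). Of 19 other lysosomal membrane proteins 2 rose, the sialic acid exporter SLC17A5 (0.52 ± 0.12) and CLN3 (0.43 ± 0.13), and none fell. Of 13 cathepsins and related proteases 4 rose and none fell: CTSC (0.50 ± 0.12), CTSZ (0.50 ± 0.12), CTSL1 (0.48 ± 0.13) and CTSB (0.37 ± 0.11). Leaving out 1 tumour moved these 3 counts between 0 and 8, 0 and 4, and 0 and 5. All 3 were 0 without tumour 9 without MSC, a fit in which 1.30% of all genes were called higher. DESeq2 called 7 higher and none lower among the other hydrolases, 2 higher and 1 lower among the other membrane proteins, and 5 higher and 1 lower among the proteases. Of the 12996 genes that DESeq2 tested, it called 859 higher (6.61%) and 778 lower.

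Genes that deliver enzymes to the lysosome or acidify it were counted in the same way. Of 18 genes of mannose 6-phosphate sorting and sulfatase activation, 2 rose and none fell in edgeR, whereas DESeq2 called 3 higher and 2 lower. Across all genes, 4.18% rose and 3.60% fell in edgeR, while DESeq2 called 859 of 12996 (6.61%) higher and 778 lower. The mannose 6-phosphate receptor M6PR had 32.4 to 41.3 CPM with MSC and 11.2 to 30.5 CPM without (log2 0.80 ± 0.22, edgeR adjusted p = 0.0406), and the adaptor subunit AP1M1 had a log2 change of 0.40 ± 0.11. Of 17 subunits of the V-ATPase, the proton pump of the lysosome, 1 rose, ATP6V0C (0.37 ± 0.11), which is 5.88% against 4.18% of all genes, and the median was -0.01. At an unadjusted p under 0.05 in edgeR, 2 of the 17 were higher and 2 lower, and DESeq2 called 1 higher and 1 lower. Of 15 genes of the TFEB family and of mTORC1 at the lysosome, none rose in edgeR, where 3 were higher at an unadjusted p under 0.05, and 2 fell, the GTPases RRAGA (-0.38 ± 0.12) and RRAGB (-0.49 ± 0.15). DESeq2 called 1 of these 15 higher and limma-voom none. Of 19 autophagy genes 1 fell, ATG5 (-0.35 ± 0.11), which is 5.26% against 3.60% of all genes, and the median was -0.03. These calls were seldom kept when 1 tumour was left out: M6PR, ATP6V0C, RRAGB and ATG5 lost theirs in 8 of 9 fits, RRAGA in 7 and AP1M1 in 6. With limma-voom RRAGA, RRAGB, ATG5, ATP6V0C and AP1M1 were not called either.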

How the data were processed

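Polysome-associated RNA of 9 tumours was sequenced after TruSeq library preparation, per the labels' protocols. The authors deposited raw counts for each gene symbol. Per the submitters' processing notes the build was hg19 and the tools were HTSeq, TopHat 1.4.0 and CASAVA 1.8.1. For the annotation, strand setting and treatment of mouse reads the source is silent (not given in the sources used here), so mouse reads in conserved genes may be included. Lines for reads given to no gene (10.2 to 12.1% of counts) were left out. No libraries agreed within sampling noise (smallest chi-square per degree of freedom 24).

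Counts were tested with edgeR 4.0.16 in R 4.3.3 (filterByExpr, TMM, glmQLFit with robust=TRUE). The threshold was an adjusted p of 0.05 by Benjamini-Hochberg over all genes. CPM used TMM-scaled library sizes. SE was the log2 change divided by the square root of F. GC content and lengths came from GENCODE 29 (95.7% of tested genes matched), and the exon length used per gene may differ from the authors' annotation. Other tools were DESeq2 1.42.0 and limma 3.58.1. The groups share no replicate numbers and no batch is named.

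The members and lists were chosen with earlier results of these data known. Named genes were all 34 members, up to 4 called genes by smallest p in each lysosomal list, and the most abundant markers. Others were named after their values were seen. Not every gene it takes is reported here.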

Additional observations from a re-analysis of the deposited data

Results flagged for a closer look

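In 6 of the 68 groups of tumours examined (34 genes in 2 groups), the highest or lowest tumour lay far from the others by Dixon's criterion at the 95% level, which chance alone meets in about 1 group in 20. NPC1 was 21.7 CPM in tumour 9 without MSC, where the others without MSC were 26.7 to 27.4 CPM. GAA was 14.6 CPM in tumour 1 with MSC, against 21.1 to 23.1 CPM in the others with MSC. PPT1 was 102.5 CPM in tumour 15 with MSC, next to 92.3 to 95.1 CPM, and CD63 was 604.7 CPM in tumour 6 with MSC, next to 477.3 to 496.8 CPM. Tumour 13 without MSC was high for GALC at 24.0 CPM, with 16.3 to 17.3 CPM in the others without MSC, and for SCARB2 at 61.9 CPM, with 46.4 to 48.1 CPM.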

How the results depend on the processing

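The number of lysosomal genes called higher, 6 as reported, was 1 to 11 when 1 tumour was left out, 2 with GC content and length offsets, and 1 with tumours 15 and 12 both left out. It was 4 with library size only, 5 with limma-voom, 7 with DESeq2, with the 5 CPM filter or at a threshold of 0.10, and 6 with the other 5 settings. None was called lower in any of the 21 alternatives. The median log2 change ran from 0.14 to 0.30 without 1 tumour. Besides the fits without 1 tumour, NEU1 lost its call with limma-voom (adjusted p = 0.0519), and LIPA and CTSA with library size only (0.0617 and 0.0509). NEU1, CTSA, PSAP and CD68 lost theirs with the GC and length offsets (0.0794, 0.101, 0.0967 and 0.0559). The sign turned for 6 uncalled genes, none with an adjusted p under 0.05 and all with a reported size of at most 0.04. With the GC and length offsets the log2 changes were -0.25 for NAGLU, -0.27 for ARSA, -0.16 for SMPD1, -0.015 for GM2A and 0.052 for LAPTM4A. ARSA was -0.0068 with DESeq2 size factors, -0.0060 with no filter and -0.0086 with DESeq2, and ACP2 was 0.0036 with limma-voom. Without tumours 15 and 12, ARSA was -0.079, SMPD1 -0.0045 and LAPTM4A 0.078. Without 1 tumour the ranges were -0.10 to 0.11 for NAGLU, -0.29 to 0.20 for ARSA, -0.11 to 0.11 for SMPD1, -0.19 to 0.034 for ACP2, -0.022 to 0.070 for GM2A and -0.090 to 0.056 for LAPTM4A. The cause of these shifts was not tested. No paired analysis was possible because the groups share no replicate numbers. Depth limits ARSA, IDUA and MANBA most, with as few as 42, 47 and 103 counts in a library.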
